A study of Mus musculus with 44 samples.

Results

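Exon-junction-spanning m6A peaks are mouse liver mRNA stretches, enriched by an antibody against N6-methyladenosine (m6A), whose exonic bases lie in more than 1 genomic block. Such peaks skip at least 1 gap between blocks, taken here as an intron. They were taken from the 4 peak lists called against a control IgG precipitate, as the plus-strand peaks with more than 1 block, and were set against the plus-strand peaks with 1 block. There were 3706 of them among 11474 plus-strand peaks, or 32.3%, and the other 7768 had 1 block. The 4 lists held 11985 peaks on both strands, and all 8 lists of the series held 17573.

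The livers came from male C57Bl/6J mice, an inbred strain, and in every group fat supplied 42% of the energy eaten. One oral exposure to Aroclor1260, to PCB126 or to both was given 2 weeks into a study that lasted 12 weeks, and control mice had vehicle, per the labels. Polychlorinated biphenyls (PCBs) are persistent pollutants that reach the liver; Aroclor1260 was sold as a blend of many congeners, whereas PCB126 is 1 congener that binds the aryl hydrocarbon receptor as dioxin does. Each treatment had 5 m6A libraries, 5 input libraries and 1 pooled IgG library, 44 in all. The sources used here give neither the doses nor the age of the mice. Each list pools the 5 animals of a treatment, so the spread between animals is unknown, no test across animals was made, and the depth behind a list is unknown. The intervals are 95% intervals for the count or order of peaks in a list. They cover counting error only, and peaks of 1 gene are not independent of each other.

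m6A is laid down on nascent mRNA by a writer complex built on METTL3 and METTL14, mainly in long internal exons and around stop codons, and reader proteins of the YTH family steer the marked mRNA toward decay or translation. The exon junction complex, which packages mRNA near splice junctions, is known to keep m6A low there, so exons of ordinary length carry little of it. A MeRIP peak is built from RNA fragments longer than the modified site, so a peak that crosses a junction does not show which exon holds the modified base. The lists hold no reads across junctions, so the blocks alone do not show that the RNA was spliced.

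Only bases near gene starts could be read, since sequence was at hand for the first 50 bases of RefSeq genes and not for whole exons. Of the loci with a junction-spanning peak, 12 had 20 or more bases of such a peak in that window, and 3 of the 12 had them in at least 2 lists. These 3 runs are shown because they are the bases of junction-spanning peaks that could be read in more than 1 list, each from the first block of its peak. They are the plus strand of RefSeq GRCm38.p6 at chr12:7977698-7977726, chr7:28825366-28825387 and chr10:41519514-41519543, 5′ to 3′, and capitals mark m6A consensus words.
Apob: cgaAGACCctgtagagcaagcagcagggg
Ech1: taccgcgaTGACAgtttccagt
Cd164: gacgcctgggctgaAGACAcaatgtcgggc

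Apob encodes the scaffold protein of VLDL and LDL particles, Ech1 a fatty acid isomerase, and Cd164 a sialomucin. A word was a core of GGAC or GAAC, of AGAC or AAAC, or of TGAC or TAAC, followed by any base but G; the transcribed strand alone was searched, and none of the marked words overlaps another. Each run held 1 such word. Runs of the same length and place held at least 1 word in 35.3% of 32851 RefSeq start windows for the Apob run, 26.7% for the Ech1 run and 36.7% for the Cd164 run, so a word is common there. The peaks that begin in these runs were weak. That of Apob had a fold enrichment, the authors' linear ratio of m6A over IgG for a peak, of 1.88 in the Aroclor1260 list and 1.73 in the control list. That of Ech1 had 1.60 in the PCB126 list, 1.42 in the combined list and 1.69 in the control list, and that of Cd164 had 1.74 in the PCB126 list and 1.64 in the combined list.

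The share of peaks that crossed a junction did not differ detectably between the exposed lists and the control list. It was 32.2% in the Aroclor1260 list (637 of 1981, interval 30.1 to 34.2%), 34.0% in the PCB126 list (1340 of 3945, 32.5 to 35.5%), 30.7% in the combined list (1085 of 3535, 29.2 to 32.2%) and 32.0% in the control list (644 of 2013, 30 to 34.1%). Against control, the difference was 0.163 percentage points for Aroclor1260 (interval -2.73 to 3.06), 1.98 for PCB126 (-0.559 to 4.47) and -1.30 for the combination (-3.85 to 1.23). All 3 intervals include 0, which does not show that the shares are equal. The 3 differences share the control list. Between exposed lists, the interval of PCB126 (32.5 to 35.5%) lay above that of the combination (29.2 to 32.2%). At equal list length these intervals overlapped (32.3 to 36.4% and 31.2 to 35.3%).

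In the lists called against input the shares were lower and lay apart. They were 19.6% for Aroclor1260, 26.7% for PCB126, 27.6% for the combination and 18.1% for control. The difference from control was 8.63 percentage points for PCB126 (interval 4.78 to 12.2), 9.53 for the combination (5.68 to 13) and 1.46 for Aroclor1260 (-3.30 to 6.33). These lists also differ in length, with 460 plus-strand peaks for Aroclor1260, 2061 for PCB126, 2168 for the combination and 569 for control. At 460 peaks per list, those with the lowest p-value, the difference was 6.52 points for PCB126 (1.06 to 11.9), 12.8 for the combination (7.15 to 18.4) and -0.435 for Aroclor1260 (-5.58 to 4.72). Counting error alone thus did not cover the gap to control for PCB126 and the combination in the lists against input. In the lists against IgG it covered the gap for every exposure. These intervals hold no spread between animals, so no effect of an exposure follows from them. The part of the reference was not tested.

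**Figure D1:**
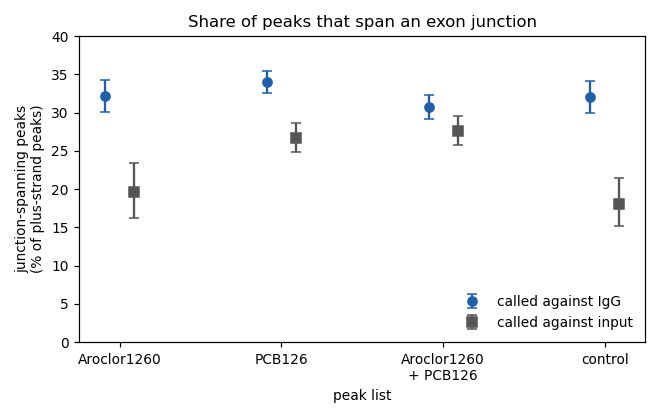
Share of plus-strand peaks that span an exon junction (y axis, percent) in the lists of the 4 treatments (x axis), called against IgG (circles) or input (squares), with 95% Wilson intervals. The IgG shares lie between 30.7 and 34.0%, and the input shares between 18.1 and 27.6%.

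The peaks lay at 873 loci, named by position. A locus had such a peak in 1 list in 374 cases, in 2 lists in 205, in 3 lists in 140 and in all 4 lists in 154. Of the 884 Ensembl identifiers behind them, 858 could be named and 851 of these are protein-coding. Among loci with any plus-strand peak, a junction-spanning one was present at 57.9% in the Aroclor1260 list (325 of 561), 62.3% in the PCB126 list (642 of 1030), 55.3% in the combined list (518 of 936) and 59.4% in the control list (335 of 564). Most loci with a junction-spanning peak had peaks of both kinds.

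Most junction-spanning peaks crossed a single junction. Peaks with 2 blocks made up 66.2% in the Aroclor1260 list, 67.5% in the PCB126 list, 68.0% in the combined list and 65.8% in the control list. Peaks with 3 blocks made up 20.4, 22.0, 21.4 and 22.0% in the same order of lists, and those with 4 or more made up 13.3, 10.4, 10.6 and 12.1%. Width went with block number. In the Aroclor1260 list the median exonic width was 151 bp at 2 blocks, 250 bp at 3 and 500 bp at 4 or more, and in the control list it was 151, 250.5 and 500 bp.

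The largest number of blocks was 9 in the Aroclor1260 and PCB126 lists, 10 in the combined list and 13 in the control list. Apob held the 13 blocks, which covered 1899 bp of short exons. Tpr, a nuclear pore basket protein gene, held the 10 blocks over 1050 bp with a fold of 7.80, and also 8 blocks in the PCB126 list. Mia2, a gene for a protein of endoplasmic reticulum export sites, had a peak of 9 blocks in the Aroclor1260 list and another of 9 in the PCB126 list, with folds of 4.40 and 5.36. In the control list Hnf4a, a master regulator of hepatocyte identity, had 9 blocks with a fold of 3.52, and F10 and Fgg, which encode clotting factor X and the fibrinogen gamma chain, had 8 each with folds of 2.34 and 2.02. Over all peaks with 4 or more blocks, the median fold was 2.29 in the Aroclor1260 list against 2.20 at 2 blocks, 4.14 against 2.90 in the PCB126 list, 3.50 against 2.60 in the combined list and 2.57 against 2.38 in the control list. The intervals were apart in the PCB126 list (3.73 to 4.60 against 2.73 to 3.00) and the combined list (3.20 to 3.97 against 2.47 to 2.70), and overlapped in the other lists.

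Blocks and gaps are described by their lengths, which an annotation given to the caller may have fixed in advance. That annotation is absent from the sources used here, so these lengths are no finding about the methylation signal. The 4 lists held 3390 different junctions, of which 2019 occurred in 1 list, 753 in 2, 382 in 3 and 236 in all 4. The gaps between blocks had a median of 1299 bp (quartiles 486 and 2798 bp). The shortest was 6 bp, and 20 gaps, or 0.59%, were under 70 bp. Whether such short gaps are introns was not tested. Prr16 had the longest gap, 184520 bp, in the PCB126 and control lists, and Dpyd, the gene of the first enzyme of pyrimidine breakdown, followed with 97202 bp in the Aroclor1260, PCB126 and control lists. Blocks with a junction on both sides numbered 1254 and had a median length of 117 bp (quartiles 85 and 156 bp). Their length was a multiple of 3 in 41.6% of cases (interval 38.9 to 44.4%), with remainder 1 in 30.8% and remainder 2 in 27.6%. Only 22 of the inner blocks, or 1.75%, were longer than 400 bp, so that almost all exons lying wholly inside a peak were short.

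Peaks reached across a junction by a short stretch at their lesser end. The shorter of a peak's end blocks had a median of 36 bp in the Aroclor1260 list, 36 bp in the PCB126 list, 34 bp in the combined list and 36 bp in the control list. It was under 10 bp in 15.1, 16.3, 15.6 and 15.8% of the peaks, again by list in that order. The longest block was the last, 3′-most one in 42.7% of the peaks of the Aroclor1260 list, 45.1% of the PCB126 list, 44.5% of the combined list and 47.8% of the control list. It was the first one in 36.0, 35.1, 35.8 and 31.5%. Among all peaks with 2 blocks, ties included, the downstream block was the longer in 52.8% in the Aroclor1260 list (interval 48.1 to 57.6%). The share was 54.7% in the PCB126 list (51.4 to 57.9%), 53.4% in the combined list (49.8 to 57.0%) and 58.3% in the control list (53.5 to 62.9%).

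Junction-spanning peaks were at least as wide as 1-block peaks and less enriched. Their median exonic width was 200 bp in each list, while that of 1-block peaks was 151 bp in the Aroclor1260 list, 192 bp in the PCB126 list and 151 bp in the combined and control lists. Their median fold was 2.20 in the Aroclor1260 list (interval 2.15 to 2.32) against 2.83 for 1-block peaks (2.80 to 3.00). It was 3.00 (2.90 to 3.20) against 3.40 (3.30 to 3.6) in the PCB126 list, 2.70 (2.60 to 2.80) against 3.30 (3.20 to 3.40) in the combined list, and 2.40 (2.28 to 2.50) against 2.90 (2.80 to 3.00) in the control list. No interval of one kind met that of the other. Called against input, the medians were 1.74 against 2.21, 2.28 against 2.50, 2.12 against 2.48 and 2.32 against 2.37 in the same order of lists, a small gap in the control list.

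Fold enrichment rose with width in both kinds, and the kinds still differed at matched width. Over 6 width classes in each of 4 lists, the median fold of junction-spanning peaks was below that of 1-block peaks in 24 of 24 classes, and the intervals did not overlap in 20. In the class of 226 to 325 bp it was 2.26 against 3.20 in the Aroclor1260 list, 3.20 against 4.00 in the PCB126 list, 2.80 against 3.92 in the combined list and 2.47 against 3.40 in the control list. In peaks wider than 525 bp the medians were 3.88 against 6.40 in the Aroclor1260 list, 7 against 8.40 in the PCB126 list, 6.30 against 7 in the combined list and 5.07 against 6.30 in the control list.

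**Figure D2:**
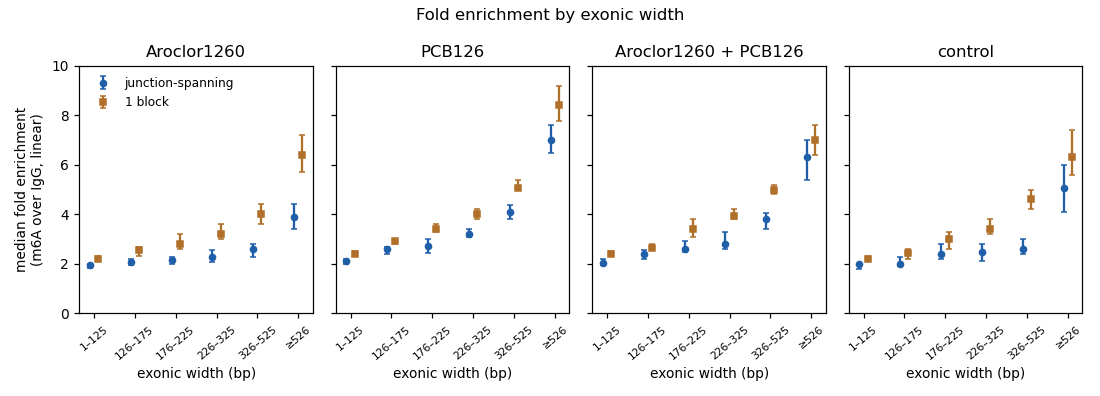
Median fold enrichment (y axis, linear ratio of m6A over IgG) by class of exonic width in bp (x axis) for junction-spanning (circles) and 1-block peaks (squares) in the 4 lists called against IgG, with 95% intervals. Junction-spanning peaks lie below 1-block peaks in 24 of 24 classes.

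Within genes that had both kinds, the strongest peak was a junction-spanning one in about 40% of cases, but 1-block peaks were more numerous. The strongest junction-spanning peak exceeded the strongest 1-block peak for 40.8% of 255 identifiers in the Aroclor1260 list (interval 34.9 to 46.9%), 40.2% of 533 in the PCB126 list (36.1 to 44.4%), 38.7% of 416 in the combined list (34.1 to 43.5%) and 39.9% of 263 in the control list (34.2 to 45.9%). In 47.8, 50.8, 50 and 55.1% of these identifiers, by list in that order, 1-block peaks outnumbered junction-spanning ones, and the larger set more easily holds the strongest peak. Among identifiers with as many peaks of each kind, the junction-spanning peak was the stronger for 52.9% of 70 in the Aroclor1260 list (interval 41.3 to 64.1%), 45.9% of 135 in the PCB126 list (37.7 to 54.3%), 48.6% of 109 in the combined list (39.4 to 57.9%) and 52.4% of 63 in the control list (40.3 to 64.2%). At equal numbers, then, neither kind was detectably stronger within a gene. The strongest peaks of each list outside the junction-spanning set included Jund, an AP-1 subunit gene, with a 1-block fold of 36.0 in the Aroclor1260 list, 208 in the PCB126 list, 92.4 in the combined list and 41.5 in the control list. The exon structure of Jund was not weighed, so these folds are no comparison of the kinds within a gene.

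A long exon inside the peak went with high fold. A block of 400 bp or more was present in 9.89% of the junction-spanning peaks of the Aroclor1260 list, 14.8% of the PCB126 list, 12.2% of the combined list and 14.1% of the control list. In those peaks the median fold was 5.03 in the Aroclor1260 list (interval 4.30 to 8.20), 7.95 in the PCB126 list (7.20 to 8.60), 6.80 in the combined list (6.20 to 8) and 6.20 in the control list (5.4 to 7.6). Junction-spanning peaks without such a block had 2.13, 2.75, 2.60 and 2.20 in that order of lists. The 1-block peaks of 400 bp or more had 5.20, 7, 6.00 and 5.84, and the intervals of both kinds overlapped in all 4 lists. Peaks with a long block are also wide, and the kinds were not matched on total width here.

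Junction-spanning peaks were more often the first and less often the last of a gene's peaks than 1-block peaks were. Among peaks of genes with at least 2 peaks, they were the first in 31.1% of cases in the Aroclor1260 list against 20.9% for 1-block peaks, in 27.0 against 20.3% in the PCB126 list, in 30.8 against 18.5% in the combined list and in 31.0 against 20% in the control list. They were the last in 15.2 against 28.5% in the Aroclor1260 list, 13.8 against 27.2% in the PCB126 list, 11.9 against 27.0% in the combined list and 13.7 against 28.1% in the control list. Neither the first-peak nor the last-peak intervals of the 2 kinds overlapped in any list. The last 20% of the gene span, introns included, held the midpoint of 32.7% of named junction-spanning peaks against 50.4% of 1-block peaks in the Aroclor1260 list, 39.6 against 52.7% in the PCB126 list, 36.5 against 56.7% in the combined list and 33.5 against 54.0% in the control list. The first 20% of the span held 12.3 against 11.5%, 8.74 against 11.3%, 10.3 against 10.4% and 9.05 against 10.6% in the same order of lists, so no excess was seen there. A final exon has no junction on its 3′ side, and how much of the difference this accounts for was not tested.

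**Figure D3:**
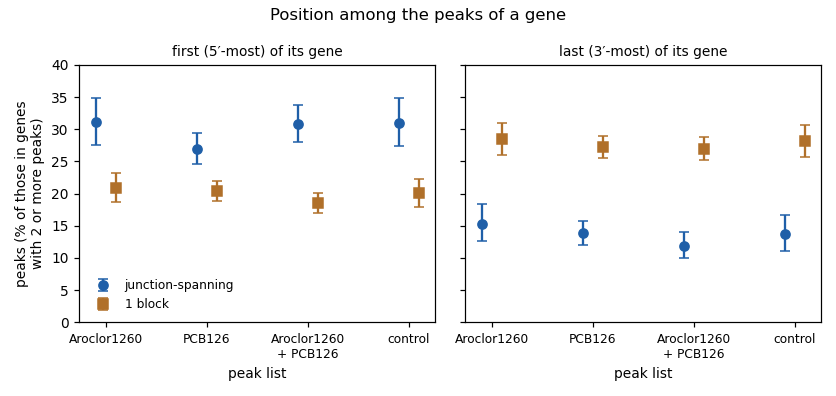
Share of peaks (y axis, percent of peaks in genes with 2 or more peaks) that are the first (left panel) or the last (right panel) of their gene, for junction-spanning (circles) and 1-block peaks (squares) in the 4 lists (x axis), with 95% Wilson intervals. Junction-spanning peaks are first in 27.0 to 31.1% and last in 11.9 to 15.2%.

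Junction-spanning peaks that came last in their gene were built differently from those that came first. Their longest block was the 3′ one in 51.1% of cases against 37.2% for first peaks in the Aroclor1260 list, 57.6 against 40.8% in the PCB126 list, 62.3 against 40.4% in the combined list and 61.0 against 41.9% in the control list. The intervals of last and first peaks were apart in the PCB126 list (50.3 to 64.7% against 35.7 to 46.0%), the combined list (53.4 to 70.4% against 35.1 to 45.9%) and the control list (50.2 to 70.8% against 35.1 to 49.1%). They overlapped in the Aroclor1260 list (41.0 to 61.1% against 30.6 to 44.3%). Median folds were 2.60 against 2.02 in the Aroclor1260 list, 3.73 against 2.80 in the PCB126 list, 3.40 against 2.64 in the combined list and 2.40 against 2.20 in the control list. Their intervals were apart in the PCB126 list alone (3.21 to 4.20 against 2.60 to 3.00).

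Of the loci with a junction-spanning peak, 70 of 325 in the Aroclor1260 list, 115 of 642 in the PCB126 list, 105 of 518 in the combined list and 74 of 335 in the control list had no 1-block peak. Such loci with many peaks were few. Among loci with at least 3 plus-strand peaks, all peaks crossed a junction at 21 of 326 in the Aroclor1260 list, 27 of 616 in the PCB126 list, 23 of 549 in the combined list and 12 of 325 in the control list. Smarca2, an ATPase of the SWI/SNF remodelling complex, had 10 such peaks in the PCB126 list with folds of 1.80 to 4.20. Tpr had 9 in the combined list, with folds of 2.27 to 11.2. F5, the clotting factor V gene, had 7 in the control list with folds of 1.23 to 2.96.

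The 10 strongest junction-spanning peaks of each list were wide and mostly of 2 blocks. Of the 40, 32 had 2 blocks, 37 had a block of 400 bp or more, and their median width was 849.5 bp. In the Aroclor1260 list folds ran from 15.7 to 40.8 and were led by Elk4, an ETS transcription factor gene, with 40.8, and Lrrc8a, a subunit gene of the volume-regulated anion channel, with 39.4. In the PCB126 list they ran from 29.8 to 54.0, led by Pik3ca, the catalytic subunit gene of PI3 kinase alpha, with 54.0, Egfr, the epidermal growth factor receptor gene, with 51.8, and Gadd45g, a stress-response gene, with 44.4. In the combined list they ran from 26.6 to 63.6, led by Arhgap29, a GTPase-activating protein gene, with 63.6, Lrrc8a with 47.0 and Arhgef3, a guanine nucleotide exchange factor gene, with 45.6. In the control list they ran from 16.2 to 41.0, led by Depp1, a FOXO target gene, with 41.0, Bmp2, a bone morphogenetic protein gene, with 37.5, and Lrrc8a with 29.4. Lrrc8a has 2 identifiers at the same place with near-identical peaks, which were joined to 1 locus. The 40 peaks were counted by identifier, however, so Lrrc8a stands among them under both in the Aroclor1260, combined and control lists.

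An identical junction lay inside peaks of all 4 lists at 108 loci. Among the 15 of these with the highest lowest fold, 6 had the same number of blocks in their strongest peak in each list. The strongest peak need not hold the shared junction. For Golga4, that of the Aroclor1260 list lay elsewhere in the gene than those of the other lists. Lrrc8a had folds of 39.4 in the Aroclor1260 list, 19.3 in the PCB126 list, 47.0 in the combined list and 29.4 in the control list, each time with 2 blocks across a gap of 4515 bp on chromosome 2. Crp, the gene of the acute-phase protein CRP, had 13.7, 25.7, 14.1 and 18.1 in that order of lists, with 2 blocks across a gap of 213 bp. Apoa5, an apolipoprotein gene that governs plasma triglyceride, had the same 3 blocks and 1484 bp in every list, with folds of 9.26, 19.4, 14.5 and 11.4.

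The other shared genes included regulators of liver metabolism. Ppara, the receptor that drives fatty acid oxidation in fasting, had 12.1 in the Aroclor1260 list, 26.6 in the PCB126 list, 11.8 in the combined list and 11.5 in the control list. Its peak had 7 blocks and 2043 bp in the PCB126 and combined lists, against 2 blocks in the control list, where it covered 1047 bp. Foxo1, a transcription factor gene of gluconeogenesis, had 11, 25.1, 15.5 and 10.1 in the order of lists used above. Gdf2, which encodes the hepatic growth factor BMP9, had 12.0, 20, 18.8 and 12.2. Of the 15 genes, 11 had their highest fold in the PCB126 list, 3 in the combined list, 1 in the Aroclor1260 list and 0 in the control list. The lists come from separate runs of the caller, and the median fold of all junction-spanning peaks was also highest in the PCB126 list, so these orders are no measure of change in a gene.

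**Figure D4:**
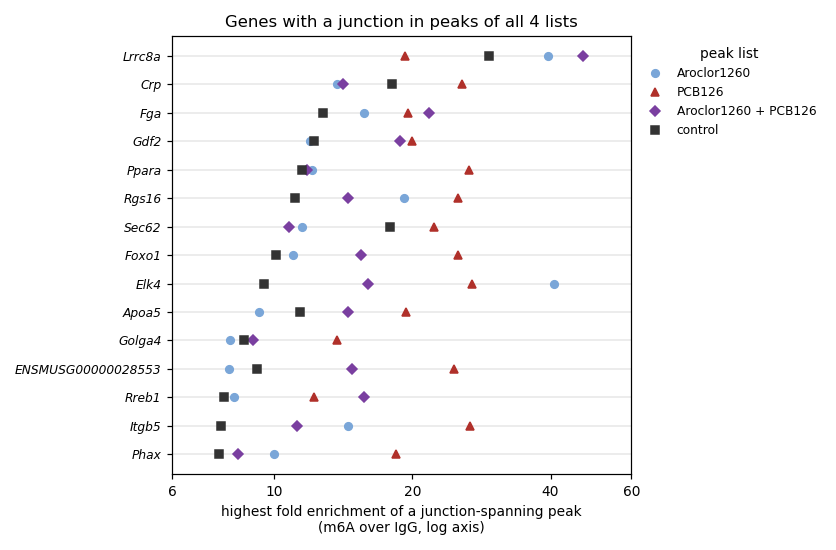
Highest fold enrichment of a junction-spanning peak (x axis, m6A over IgG, log axis) in each of the 4 lists for the 15 genes (y axis) with an identical junction in all 4 lists and the highest lowest fold. Points run from 7.6 for Phax in the control list to 47.0 for Lrrc8a in the combined list, and 11 genes are highest in the PCB126 list. The points of a gene can belong to peaks at different places.

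Fga and Apob, both genes of abundant plasma proteins, show how the block structure held in one case and differed in another. Fga, the fibrinogen alpha chain gene, had 1 plus-strand peak in each list, always of 5 blocks from the same first base, chr3:83026224. The first 4 blocks were 45, 129, 184 and 146 bp in every list, and the last block was 1322 bp in the Aroclor1260 list, 1125 bp in the PCB126 list, 1421 bp in the combined list and 1322 bp in the control list. The folds were 15.7, 19.6, 21.8 and 12.8 in that order.

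Apob had junction-spanning peaks in the Aroclor1260 and control lists and none in the others. There were 3 of 5 plus-strand peaks in the Aroclor1260 list, 0 of 9 in the PCB126 list, 0 of 8 in the combined list and 4 of 6 in the control list. A single control peak of 6 blocks and 8741 bp, with a fold of 10.8, held a block of 7467 bp at chr12:8005736-8013202, the longest inner block in the data. Inside that block the PCB126 list had 8 separate 1-block peaks with folds of 3.99 to 8.10, which covered 4153 bp. The combined list had 8 with folds of 4.69 to 12.5, covering 5651 bp, and the Aroclor1260 list had 1 of 151 bp with a fold of 2.08. The long exon thus held 1-block peaks in the exposed lists and lay inside 1 junction-spanning peak in the control list. The authors' false discovery rate of the long control peak, 0.0398, was near the largest in any list, 0.0490.

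**Figure D5:**
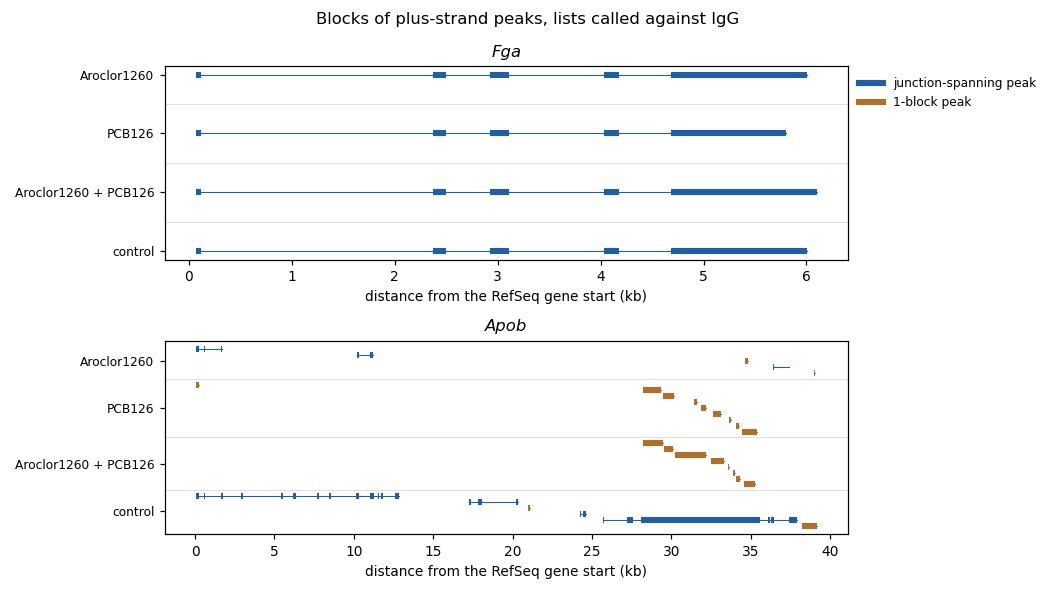
Blocks of the plus-strand peaks of Fga (top) and Apob (bottom) in the 4 lists called against IgG (rows), as distance from the RefSeq gene start in kb (x axis); thick bars are exonic blocks, thin lines the skipped introns, and colour separates junction-spanning from 1-block peaks. Fga has 5 blocks in each list, the first 4 of them identical, while Apob has 0 junction-spanning peaks in the PCB126 and combined lists.

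Peaks that were in an exposed list without a control peak were counted by overlap of at least 1 exonic base on the same strand. In the PCB126 list, 61.3% of junction-spanning peaks had no control peak (822 of 1340) against 65.5% of 1-block peaks and a background of 64.1% for all plus-strand peaks, a difference of -4.11 percentage points (interval -7.30 to -0.941). In the combined list the share was 57.6% (625 of 1085) against 60.2%, with a background of 59.4%, a difference of -2.60 points (-6.13 to 0.903). In the Aroclor1260 list it was 43.2% (275 of 637) against 40%, with a background of 41%, a difference of 3.22 points (-1.41 to 7.88). The share of junction-spanning peaks lay within 3 percentage points of the background in each list. The PCB126 and combined lists are longer than the control list, and in bulk liver more methylation per transcript, more transcript per cell and more cells with it cannot be told apart.

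In the opposite direction junction-spanning control peaks were missing from the PCB126 and combined lists more often than 1-block control peaks. Of the 644 control junction-spanning peaks, 26.7% had no peak in the PCB126 list against 17.8% of the 1-block control peaks, with a background of 20.7%, a difference of 8.88 points (interval 4.99 to 12.9). In the combined list 31.5% were missing against 22.0%, with a background of 25%, a difference of 9.53 points (5.39 to 13.8). In the Aroclor1260 list 46.1% were missing against 42.4%, with a background of 43.6%, a difference of 3.68 points (-0.959 to 8.33). The junction-spanning control peaks missing from the PCB126 list had a median fold of 1.90, against 2.62 for those found there. The medians were 2.00 against 2.60 for the combined list and 2.40 against 2.42 for the Aroclor1260 list. An identical junction was kept for 42.4% of the control peaks in the Aroclor1260 list, 58.5% in the PCB126 list and 54.3% in the combined list. A 1-block peak alone lay over 8.70, 9.78 and 9.78% of them in that order.

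A switch from a junction-spanning control peak to 1-block peaks in all 3 exposed lists was rare. It held for 5 of the 644 control peaks, or 0.776%, namely those of Akap9, Nbr1, Zc3h13, Nsd1 and Cavin2, which were looked up after the count. Zc3h13 encodes a subunit of the m6A writer complex. There the exposed 1-block peaks had folds of 4.20 in the Aroclor1260 list, 6.40 in the PCB126 list and 2.80 in the combined list. The control peak there had 2 blocks, 400 bp and a fold of 3.8. Elsewhere in the gene these exposed lists held 1, 4 and 2 junction-spanning peaks, with highest folds of 5.30, 13.7 and 9.53. A further 77 control peaks, or 12.0%, had no peak over them in any exposed list, and 181, or 28.1%, met a junction-spanning peak in all 3.

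Among loci with a junction-spanning peak, 28.3% in the Aroclor1260 list, 48.1% in the PCB126 list and 45.9% in the combined list had no plus-strand control peak at all. The background over all loci with a plus-strand peak was 29.6, 51.3 and 46.8% in that order. Egfr had no plus-strand peak in the control list. Its strongest junction-spanning peak had a fold of 11.1 with 6 blocks in the Aroclor1260 list, 51.8 with 7 blocks and 2196 bp in the PCB126 list, and 34.0 with 6 blocks in the combined list, and the 3 comparisons share the control list. It had 6, 5 and 4 junction-spanning peaks in these lists.

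Other genes without a plus-strand control peak included signalling genes. Arhgap29 had 20 in the Aroclor1260 list, 3.8 in the PCB126 list, where a 1-block peak had 38.5, and 63.6 in the combined list. Arhgef3 had 34.4 in the PCB126 list and 45.6 in the combined list, and no plus-strand peak in the Aroclor1260 list. Pik3ca had 3 junction-spanning peaks in the PCB126 list, the strongest at 54.0, and no plus-strand peak in the other lists. In the PCB126 list Wac and Traf6, an adaptor gene of innate immune signalling, followed with 29.8 and 17.6, and in the combined list Lrrc58 followed with 24.9. In the Aroclor1260 list Akap13 with 6.00 and Smarcc2, a SWI/SNF subunit gene, with 5.80 came after Egfr, and G6pc, the glucose-6-phosphatase gene, had 4 blocks and 4.91.

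Of the 335 control loci with a junction-spanning peak, 27.8% had no plus-strand peak in the Aroclor1260 list, 10.4% none in the PCB126 list and 13.1% none in the combined list. The background over all control loci was 30, 11 and 11.7% in that order. Depp1 had no plus-strand peak in the Aroclor1260 list, a junction-spanning fold of 20.4 in the PCB126 list, 4.89 in the combined list, where a 1-block peak had 41.8, and 41.0 in the control list. Myc, the proto-oncogene, had 17.8 in the Aroclor1260 list, 29.4 in the PCB126 list, no plus-strand peak in the combined list and 18.2 in the control list. Acvr2a, an activin receptor gene, had none in the Aroclor1260 and PCB126 lists, a 1-block peak of 27.6 in the combined list and a junction-spanning peak of 15 in the control list. Hgs, an endosomal sorting gene, had none in any exposed list, against 4 junction-spanning peaks in the control list with a highest fold of 5.60.

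Junction-spanning peaks were found less often than 1-block peaks when the same m6A libraries were set against input. The share found was 16.2 against 21.7% in the Aroclor1260 list, with a background of 19.9% for all plus-strand peaks. It was 39.5 against 50.2% in the PCB126 list (background 46.5%), 48.3 against 54.0% in the combined list (background 52.3%) and 18.3 against 25.9% in the control list (background 23.5%). The difference was -5.56 percentage points for Aroclor1260 (interval -9.06 to -1.83), -10.7 for PCB126 (-13.9 to -7.43), -5.75 for the combination (-9.30 to -2.17) and -7.61 for control (-11.3 to -3.72). Among the 40 strongest peaks named above, counted by identifier, 34 were found in the input list.

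Several lists of liver genes had junction-spanning peaks. The following counts sum over the 4 lists, in which a locus can recur, and stand beside 32.3% for all plus-strand peaks. Of 89 peaks at coagulation genes, 67, or 75.3%, crossed a junction. The highest fold was 21.8 for Fga, 8.95 for Serpind1, the heparin cofactor II gene, 8.20 for Kng1, the kininogen gene, 7.16 for F5 and 5.69 for Hrg, the histidine-rich glycoprotein gene. Junction-spanning peaks were present at 7 of 8 coagulation loci with a peak in the Aroclor1260 list, 6 of 8 in the PCB126 list, 8 of 9 in the combined list and 8 of 9 in the control list. By list, 19 of 26, 12 of 17, 17 of 22 and 19 of 24 of the peaks crossed a junction, or between 70.6 and 79.2%.

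Cytochrome P450 genes, bile acid and canalicular transport genes and fatty acid oxidation genes had shares above that of all plus-strand peaks, in part through single genes. Of 63 peaks at P450 genes and their reductase, 38, or 60.3%, crossed a junction, 19 of them at Por, the reductase gene. Por had 5 of 6, 5 of 7, 3 of 4 and 6 of 7 of its peaks across junctions in the Aroclor1260, PCB126, combined and control lists. Cyp2c29, a xenobiotic-metabolising P450 gene, had highest folds of 1.62 in the Aroclor1260 list, 3.33 in the PCB126 list, 9.33 in the combined list and 2.10 in the control list. Of 76 peaks at bile acid and canalicular transport genes, 48, or 63.2%, crossed a junction, 28 of them at Abcb4, the phosphatidylcholine exporter gene. Of 108 peaks at fatty acid oxidation genes, 63, or 58.3%, did. Acsl1, a long-chain acyl-CoA synthetase gene, had 6, 3, 5 and 4 such peaks in the 4 lists with highest folds of 4.20, 4.55, 5.80 and 6.17. Cpt1a, the gate of mitochondrial fatty acid import, had 5 in the Aroclor1260 list, 1 in the PCB126 list, 0 in the combined list and 5 in the control list.

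Other lists lay nearer to the share of all peaks or below it. Hepatic transcription factor genes had 45 of 146 peaks across junctions, or 30.8%, with Hnf4a at 3, 4, 4 and 2 peaks in the 4 lists and Klf15, a glucocorticoid-responsive factor gene, at folds of 10.4, 10.8, 13.2 and 4.24. Glucose metabolism genes had 19 of 62, or 30.6%, and apolipoprotein and lipid transport genes 26 of 75, or 34.7%. The latter divided unevenly, with 7 of 16 in the Aroclor1260 list, 3 of 19 in the PCB126 list, 7 of 24 in the combined list and 9 of 16 in the control list. Immediate early genes had 14 of 50, or 28.0%, and genes of the exon junction complex 3 of 21, or 14.3%. Genes of the m6A machinery had 20 of 56, or 35.7%, with junction-spanning peaks at Zc3h13, Ythdf3 and Ythdc1. Ythdf3, a cytoplasmic m6A reader gene, had a junction-spanning peak of 3.20 in the Aroclor1260 list, 4.15 in the PCB126 list, 5.60 in the combined list and 1.5 in the control list, beside 1-block peaks of 20.1, 42.9, 113 and 36.4. The exon structure of these genes was not weighed, and no list was tested.

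Summed over the 4 lists, plasma protein and stress-response genes also had more than 50% of their peaks across junctions, and redox genes fewer. Each share above 50% in the sums below was under 50% in at least 1 list. Plasma carrier and acute-phase genes had 48 of 85 peaks across junctions, or 56.5%, amino acid and urea genes 24 of 43, or 55.8%, unfolded protein response genes 33 of 59, or 55.9%, complement genes 22 of 42, or 52.4%, and lipogenesis genes 38 of 74, or 51.4%. In the Aroclor1260, PCB126, combined and control lists, complement genes had 1 of 4, 6 of 10, 6 of 15 and 9 of 13. Amino acid and urea genes had 7 of 8, 6 of 15, 4 of 10 and 7 of 10. Plasma carrier genes had 47.6% and lipogenesis genes 40% in the PCB126 list, and unfolded protein response genes 47.1% in the combined list. Cp held 20 of the 48 junction-spanning plasma carrier peaks. Hspa5 and Pdia3 held 10 and 12 of the 33, and Lpin2 and Mlxipl 16 and 11 of the 38. Glutathione and redox genes had 17 of 49, or 34.7%, and these divided unevenly, with 6 of 11 in the Aroclor1260 list, 6 of 18 in the PCB126 list, 5 of 18 in the combined list and 0 of 2 in the control list. Gclc, the catalytic subunit gene of glutamate-cysteine ligase, had 3, 3 and 2 junction-spanning peaks in the exposed lists and no plus-strand peak in the control list. Of 10 listed targets of the aryl hydrocarbon receptor, 4 are plus-strand and 5 minus-strand genes in the RefSeq table, and minus-strand peaks were not counted. These targets had no junction-spanning peak in any list, and 2 plus-strand peaks in all, both in the combined list.

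The tissue label was set beside cell type markers. Over the 4 lists, a peak lay at 4 of 11 listed hepatocyte markers and at 4 of 12 endothelial ones. These counts therefore do not decide the label. Hepatocyte markers had 41 plus-strand peaks over the 4 lists, 16 of them across junctions, at Apob, Apoa1, Cyp2e1 and Ttr. Apob alone held 7 of the 16. It also held 5 of 9, 9 of 12, 8 of 12 and 6 of 8 hepatocyte marker peaks in the Aroclor1260, PCB126, combined and control lists. The hepatocyte count thus rests largely on 1 gene. Endothelial markers had 40 plus-strand peaks, with 6 across junctions, at Bmp2, Eng and Cdh5. Kupffer cell and macrophage markers had 6, stellate cell markers 7, cholangiocyte markers 1 and lymphocyte markers 0. By list, endothelial markers had 2 junction-spanning peaks for Aroclor1260, 2 for PCB126, 0 for the combination and 2 for control, and their part in the differences above was not tested.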

How the data were processed

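Liver RNA of 4 treatments was measured by MeRIP sequencing. BWA 0.7.17, Trimmomatic, FastQC 0.10.1 and bcl2fastq 2.20.0.422 are named, with build mm10, per the submitters' processing notes. Their order and the settings and annotation of the peak caller, MeTPeak by the lists' titles, are absent from the sources used here. The authors deposited 8 peak lists, 1 per treatment and reference (IgG or input). Per the file headers, each peak has a p-value, the log10 of its false discovery rate, a fold enrichment (a linear ratio) and a block count with block sizes and starts. Medians and ranks of caller values were compared within a list; folds of single genes stand side by side across lists as a description. Depth is unknown.

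Python 3.11.15 with pandas 2.3.3, numpy 2.4.6, scipy 1.17.1 and matplotlib 3.10.9 computed shares with Wilson intervals, differences with Newcombe intervals and medians with order-statistic intervals; the counting steps were tested on simulated peaks. Peaks overlapped when they shared at least 1 exonic base on the same chromosome and strand. Positions along a gene follow exonic midpoints. Identifiers took the name of the RefSeq GRCm38.p6 gene holding at least 80% of their exonic peak bases, the only protein-coding one where several did; 1291 of 1349 were named. At overlapping genes, and in near-identical families such as Cyp2c and Mug, names are uncertain. Whether counting used strand is not given.

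Named genes are the 10 strongest junction-spanning peaks and the 5 with most blocks per list, the 15 shared loci of highest lowest fold, the 10 strongest loci gained and 5 lost per exposure, up to 5 members of each of 23 gene lists, the 3 longest gaps, and genes whose peaks all span junctions; Akap9, Nbr1, Nsd1, Cavin2 and Apob's long exon were looked up after their values were seen. The members, the gene lists and the 400 bp limit were chosen with earlier results of these data known. A gene that the naming rule picked is not reported here.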

Additional observations from a re-analysis of the deposited data

Results flagged for a closer look

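Minus-strand peaks were outside every comparison above, and a share of them crossed junctions as well, which drew attention because it lies above 0 in peaks that were not used. More than 1 block was present in 24.8% of the minus-strand peaks of the Aroclor1260 list (25 of 101, interval 17.4 to 34.0%), 28.3% of the PCB126 list (52 of 184, 22.3 to 35.2%), 23.0% of the combined list (34 of 148, 16.9 to 30.4%) and 23.1% of the control list (18 of 78, 15.1 to 33.6%). The minus strand held few peaks in each list, and why it did was not tested.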

How the results depend on the processing

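Over 136 alternative values, 73 stayed within the interval of the reported value and 63 did not. Overlap of whole spans, a false discovery rate of at most 0.001 and both strands moved none of them. Values below run in the order Aroclor1260, PCB126, combination and control (exposures alone for peaks without a control peak), and the cause of a move was not tested unless named.

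Called against input, the junction-spanning share was 19.6, 26.7, 27.6 and 18.1%, the share without a control peak 33.3, 79.1 and 80.3%, the median width 251, 250, 246 and 299 bp, and the share last in the gene 24.1, 16.0, 15.7 and 18%. The median fold was 1.74, 2.28 and 2.12 in the 3 exposed lists, and the gap to 1-block peaks was smallest in the control list, 2.32 against 2.37. At equal list length against input, a setting added after the data were seen, the share was 19.6, 26.5, 32.8 and 20%. At equal length against IgG, the share of the combined list was 33.2%, above the control list where it was below it before. The share without a control peak was then 52.1% for PCB126 and 53.2% for the combination, the width for PCB126 248 bp, and the last share 19.4% for PCB126 and 15.7% for the combination.

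Ignoring blocks under 10 bp gave shares of 29.4, 30.6, 27.9 and 29.1%. With 1 peak per gene the share was 32.3% for PCB126 and 28.5% for the combination, and the median fold 3.20, 6.00, 4.88 and 3.6, since the strongest peak was kept. At widths of 150 to 250 bp the share was 37.2% for PCB126 and 32.6% for the combination, and the fold 2.13 for Aroclor1260 and 2.60 for PCB126. The share without a control peak was 64.2, 76.7 and 76.1% where both peaks had to share at least 50% of their bases, 55.9, 72.0 and 68.6% where a junction had to be identical, and 27.6, 46.8 and 42.5% where any control peak of the gene counted. The share found in input was 10.2, 28.7, 38.2 and 11.3% with 50% of both peaks shared. Where a gene had as many peaks of each kind, a setting also added after the data were seen, the strongest peak spanned a junction in 52.9, 45.9, 48.6 and 52.4%, against about 40% before. In genes with 3 or more peaks the last share was 11.5, 10.6, 8.75 and 9.81%.

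No paired analysis was possible because each list pools the 5 animals of a treatment and holds no value per animal. No replicate was left out, for the same reason. Depth per list is unknown.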
